A study of Mus musculus with 24 samples.

Results

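Gene expression 3 days after activation of the GlyCl channel was compared with that 1 day after activation in the entorhinal cortex of adult mice, over all 16767 genes expressed highly enough to be tested. The comparison used 12 of the 24 libraries of the series, the 6 whose treatment label gives day 3 and the 6 whose label gives day 1. The study follows the cortex over the days after activation, and its other libraries are 6 from vehicle controls and 6 from day 2. Each library was bulk RNA sequencing of subdissected entorhinal cortex. All 24 libraries, vehicle included, carry the same label of genotype, tg/tg, and of strain, Nop-tTA Line S (31779 at MMRRC) crossed with TRE-GlyCl-YFP Line 9531 (29301 at Jax), and all animals were adults of 2 to 4 months. The day 1 group and the day 3 group each held 3 females and 3 males, with the same labels of tissue, genotype, strain and age. The animal numbers began with 5 different pairs of digits in each group, of which 3 occurred in both, and with these first 2 digits as a factor 42 genes were called higher and 11 lower at day 3, against 101 and 8 without it. The activating agent is not named in the labels used here.

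GlyCl is an engineered chloride channel that quiets the neurons carrying it when it is activated. Its expression here depends on the transactivator tTA, which the Nop-tTA line expresses from the neuropsin promoter, a promoter used to target neurons of the superficial entorhinal cortex. The tissue contains all cell types of the region, so the values describe the whole cortex and not the silenced neurons alone. Neurons answer activity with immediate early genes, transcription factors that switch on within minutes of firing, and with slower genes of synapses and growth factor signalling. Microglia, the resident macrophages of brain, and astrocytes answer disturbed neurons by secreting chemokines, by turning on interferon-stimulated genes, complement and lysosomal genes, and, for microglia, by dividing.

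At day 3, 109 of the 16767 genes (0.650%) differed from day 1 at an adjusted p under 0.05 in edgeR's quasi-likelihood test, and such genes are named as called below. Of these, 101 (0.602%) were higher at day 3 and 8 (0.0477%) were lower. The median log2 fold change of all genes tested was 0.00. The called rises were led by chemokines, the astrocyte filament gene Gfap, microglial surface genes, interferon-stimulated genes and genes of dividing cells, and the largest falls were those of the transgene marker EYFP and of Glra1. The log2 fold changes of the 101 rises lay between 0.20 and 4.19 with a median of 0.68. Of the rises, 36 exceeded a doubling and 43 were below 1.5-fold. In 57 of them every day 3 library lay above every day 1 library, which was true of 0.579% of all genes tested, and in 5 of the 8 falls every day 3 library lay below, which was true of 0.250%. In bulk tissue, more cells of a type and more RNA per cell cannot be told apart. The gene lists used below, and their members, were chosen with earlier results of these data known. Counts of called members therefore describe the lists and do not test them. The share over all genes, 0.602% called higher, is the one to set beside each such count of the reported fit. Some genes low at day 1 passed the filter on low counts only through their day 3 libraries, which favours rises.

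**Figure D1:**
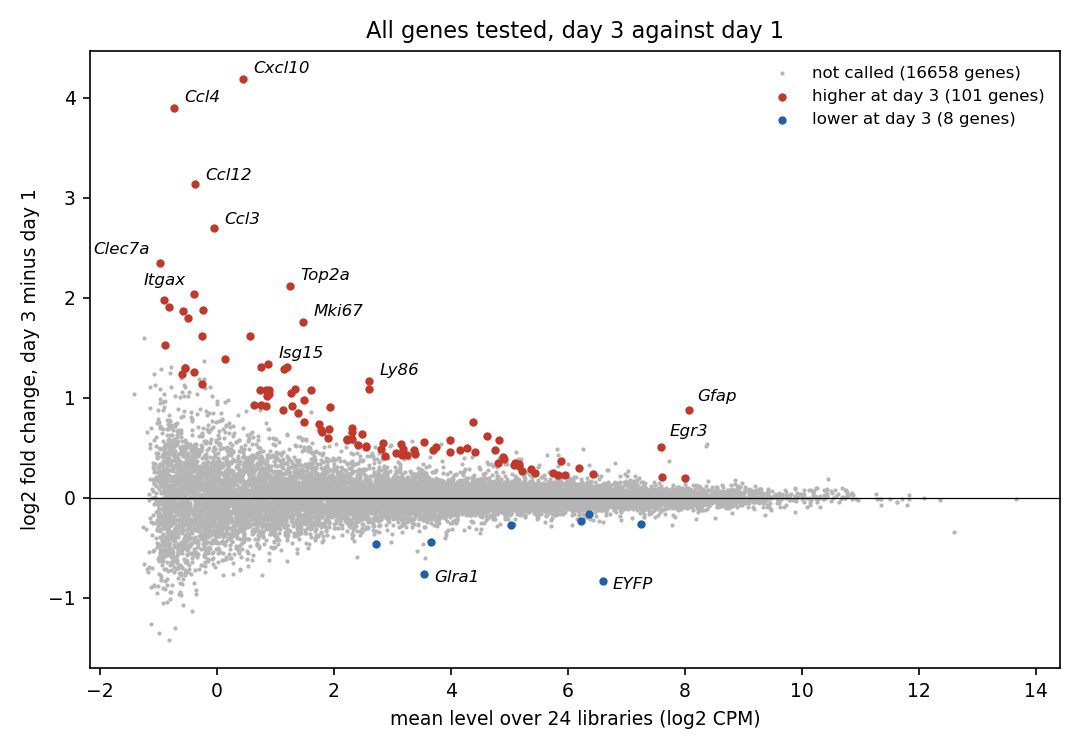
Log2 fold change, day 3 minus day 1, of each of the 16767 genes tested against its mean level over the 24 libraries in log2 CPM (reads of a gene per 1000000 reads of the library); red points are the 101 genes called higher at day 3, blue points the 8 called lower. The largest changes among called genes, up to 4.19 for Cxcl10, belong to genes of low level, while Gfap stands out among abundant genes at 0.88.

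The 12 libraries held 16.6 M to 23.7 M reads in genes, M being 1000000, (exact permutation test of the days, two-sided, p = 0.675). Levels are given as CPM, reads of a gene per 1000000 reads of the library, and each triple of values is the lowest, the median and the highest of the 6 libraries of a day. Libraries carried very different amounts of choroid plexus RNA: transthyretin (Ttr), the main transcript of that tissue, was 9.56, 19.9 and 983 CPM at day 1 and 12.4, 290 and 1072 CPM at day 3, with 2 libraries of day 1 and 3 of day 3 above 100 CPM. The summed CPM of the microglial markers Cx3cr1, P2ry12, Csf1r and Tmem119 ranged from 184 to 218 at day 1 and from 200 to 252 at day 3 (exact permutation test, two-sided, p = 0.0455, adjusted p = 0.26 over 20 library measures). Markers of T cells, neutrophils and B cells summed to less than 1 CPM in each of the 12 libraries. The number of calls depended on single libraries: it was 48 higher and 5 lower without day 3 library 1, 40 and 4 without day 3 library 6, 55 and 7 without day 1 library 5, 63 and 4 without day 1 library 6, and 100 and 15 without day 1 library 2. No called gene changed direction in these fits, and 41 of the 109 were called in each of the 12 fits that left 1 library out.

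Chemokines showed the largest changes. These small secreted proteins draw immune cells along a gradient. Of the 16 chemokines and chemokine receptors tested, 7 were called, all of them ligands and all higher at day 3. This is 43.8%, against 0.602% of all genes, and the median log2 fold change of the list was 0.36. The list held 26 genes, and the others had too few reads to be tested. Cxcl10, Ccl4 and Ccl12 passed the filter on low counts only through their day 3 libraries, so the filter partly sets this share. Cxcl10, a ligand induced by interferon, was 0.0452, 0.0791 and 0.803 CPM at day 1 and 2.11, 4.73 and 5.72 CPM at day 3. The groups did not overlap, and 1 of the day 1 libraries, a female, stood above the other 5 without reaching day 3. Its log2 fold change was 4.19 ± 0.44 (SE, adjusted p = 1.12e-06), from 28 reads over the 6 day 1 libraries to 508 reads over the 6 of day 3. Of the 28 reads, 19 came from day 1 library 5, and without it the log2 fold change was 5.47 ± 0.45. Ccl4, which like Ccl3 is made by activated microglia, was 0, 0.0816 and 0.163 CPM at day 1 and 0.74, 1.41 and 1.58 CPM at day 3 (log2 fold change 3.90 ± 0.40, adjusted p = 1.04e-06). The 10 reads of Ccl4 over all day 1 libraries make the size of this change imprecise, but no day 1 library came near the lowest day 3 library. Ccl3 was 0.0423, 0.272 and 0.884 CPM at day 1 and 1.73, 2.23 and 2.53 CPM at day 3 (log2 fold change 2.70 ± 0.34, adjusted p = 2.7e-05). Ccl12, a ligand of the monocyte receptor Ccr2, was 0.055, 0.239 and 0.362 CPM at day 1 and 0.902, 2.07 and 2.75 CPM at day 3 (log2 fold change 3.14 ± 0.39, adjusted p = 2.11e-05). Again all 6 libraries of day 3 were above all 6 of day 1. Ccl6 and Ccl9, related ligands of myeloid cells, rose by 1.29 ± 0.19 and 1.02 ± 0.18 on the log2 scale (adjusted p = 0.000411 and 0.00257). Cxcl16, which exists as a membrane-bound and a shed ligand, rose by 0.93 ± 0.23 (adjusted p = 0.0456) with overlapping groups and lost its call without any 1 of 10 of the 12 libraries, while the other 6 ligands kept theirs in each such fit. Ccl4 and Ccl12 were not called when genes were required to reach 1 CPM in 6 libraries (both were left untested by that filter), and reads of Ccl3, Ccl4 and Ccl12 may be shared with near-identical copies.

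**Figure D2:**
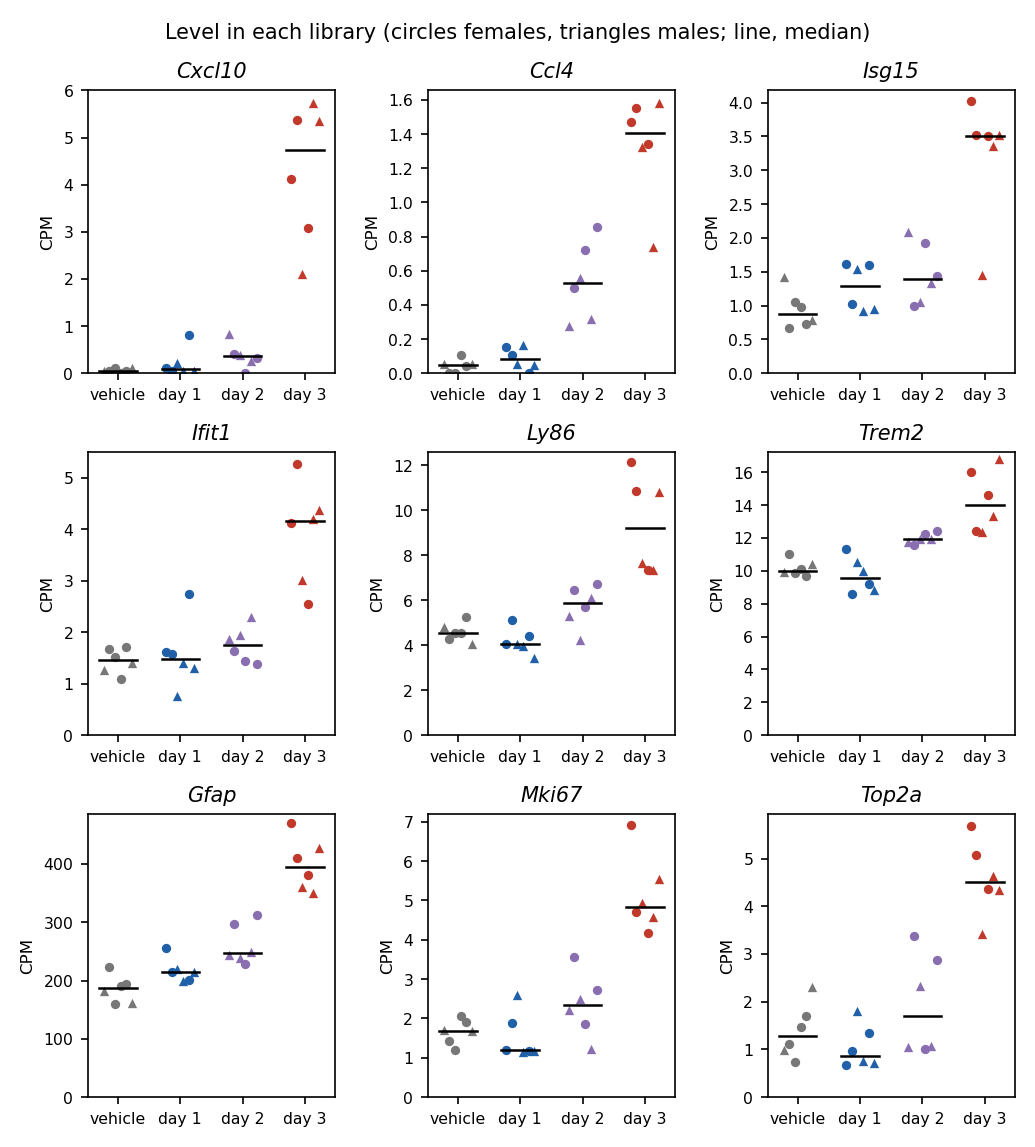
Level in CPM of 9 genes in each of the 24 libraries by group; circles are females, triangles males and the black line is the group's median. At day 3 Cxcl10 lay between 2.11 and 5.72 CPM and Gfap between 350 and 470 CPM, above every day 1 library, while 1 male library of day 3 had 1.44 CPM of Isg15, within the range of day 1.

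Interferon-stimulated genes were the list with the highest median, 0.61. Of its 38 tested members 15 were called, all higher (39.5%, against 0.602% of all genes). Isg15, a ubiquitin-like protein attached to other proteins during antiviral responses, was 0.922, 1.28 and 1.61 CPM at day 1 and 1.44, 3.51 and 4.02 CPM at day 3. Of the 6 day 3 libraries, 5 lay well above day 1 and 1 male library lay within it. The log2 fold change was 1.34 ± 0.23 (adjusted p = 0.00203). Ifit1, which binds foreign RNA, was 0.77, 1.49 and 2.75 CPM at day 1 and 2.54, 4.15 and 5.28 CPM at day 3 (log2 fold change 1.31 ± 0.21, adjusted p = 0.000942). Only the highest library of day 1 reached the range of day 3. Its neighbour Ifit3 was 3.03, 4.30 and 6.51 CPM at day 1 and 5.60, 10.2 and 12.7 CPM at day 3 (log2 fold change 1.09 ± 0.18, adjusted p = 0.00203), and the near-identical Ifit3b rose by 0.91 ± 0.16 (adjusted p = 0.00224). Usp18, the protease that removes Isg15 and dampens the interferon receptor, rose by 1.62 ± 0.32 (adjusted p = 0.00996), from 0.217, 0.501 and 0.703 CPM to 0.782, 1.44 and 2.29 CPM, without overlap. Rsad2, Oasl2, Rtp4 and Lgals3bp, antiviral or interferon-induced proteins, rose by 1.08, 1.08, 0.92 and 0.58. The other rises were those of the GTPases Gbp3, Gbp7, Irgm1 and Iigp1 (0.74, 0.70, 0.55 and 1.08), of Ifit2 (0.44) and of Eif2ak2 (0.49), the kinase that stops translation on sensing double-stranded RNA.

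Of 29 tested genes of interferon sensing and signalling, 3 were called, all higher (10.3%, against 0.602% of all genes), and the median was 0.17. Irf7, the transcription factor that amplifies the interferon response, was 1.03, 1.34 and 1.56 CPM at day 1 and 1.87, 2.79 and 3.87 CPM at day 3 (log2 fold change 1.04 ± 0.19, adjusted p = 0.0051), without overlap. Ddx58, which encodes the RNA sensor RIG-I, rose by 0.59 ± 0.13 (adjusted p = 0.0201), and Tlr2, a receptor for bacterial lipids and damage signals, by 1.31 ± 0.27 (adjusted p = 0.0155). Ifnb1 and Ifng, genes of interferons themselves, did not pass the filter on low counts. Across the called interferon-stimulated genes the same libraries stood at the ends of the day 3 group: day 3 library 6 was the highest for 9 of the 15, and day 3 library 3 the lowest for 10, with summed microglial markers of 229 and 200 CPM. Day 3 library 1, which had the highest marker sum (252 CPM), was the highest for 1 of the 15. Without day 3 library 6, 8 of the list were called (Isg15, Ifit1, Ifit3, Ifit3b, Lgals3bp, Rsad2, Rtp4 and Oasl2), and of the 3 sensing genes 1 was called without that library or without day 1 library 5 or 6. Without the 8 libraries of the series rich in Ttr, which leaves 4 of day 1 and 3 of day 3, 2 of the list were called (Isg15 and Ifit3) at a list median of 0.59, and 4 were called with the first 2 digits of the animal number as a factor. Over all genes, 40 of 16903 were called higher without day 3 library 6, 34 of 17062 without the Ttr-rich libraries and 42 of 16767 with that factor.

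The promoters of these genes are shown because members that rose together may be read against the letters that interferon-activated factors bind. In RefSeq promoter windows of 300 bases (250 before to 50 after the start of the gene, build GRCm38.p6), the core of the interferon-stimulated response element, GAAANNGAA on either strand, was found in 9 of the 12 called interferon-stimulated genes that had a window (75%) and in 19 of 29 tested members of the list (65.5%). It was found in 8.56% of all 32851 windows, in 8.56% of the 12098 tested genes with a window, and in 17 of the 78 genes called higher that had a window (21.8%). A gene was counted when any of its windows held a match. The STAT element TTCNNNGAA, which can overlap it, was found in 3 of the 12 and in 8.30% of all windows. The stretches below run 5′ to 3′ along the gene's strand, with 25 bases on each side of the matches, and capitals mark the matched core or its reverse complement. They are the windows of Isg15 at chr4:156200851-156200921 (minus strand), Ifit1 at chr19:34640755-34640838 (plus strand), Ifit3 at chr19:34583349-34583460 (plus strand), Gbp3 at chr3:142559975-142560039 (plus strand), Rsad2 at chr12:26456538-26456596 (minus strand) and Cxcl10 at chr5:92349069-92349127 (minus strand).
Isg15: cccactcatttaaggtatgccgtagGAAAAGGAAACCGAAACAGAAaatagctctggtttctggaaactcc
Ifit1: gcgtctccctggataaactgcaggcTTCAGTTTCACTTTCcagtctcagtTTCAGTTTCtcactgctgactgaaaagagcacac
Ifit3: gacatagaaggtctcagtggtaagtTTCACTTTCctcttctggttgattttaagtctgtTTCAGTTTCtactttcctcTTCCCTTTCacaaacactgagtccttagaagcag
Gbp3: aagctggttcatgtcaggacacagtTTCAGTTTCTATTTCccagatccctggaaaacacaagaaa
Rsad2: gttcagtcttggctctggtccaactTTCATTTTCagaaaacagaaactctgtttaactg
Cxcl10: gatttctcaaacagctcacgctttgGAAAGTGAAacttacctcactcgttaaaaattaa
Isg15, Ifit1 and Ifit3 held 3 matches each, the first of them 78, 109 and 155 bases before the start. Rsad2 and Cxcl10 held 1 match each, 119 and 213 bases before the start. Gbp3 held 2 matches in the window shown and none in another of its windows. The windows of Irf7, Oasl2, Lgals3bp and Ifit2 held no match, which says only that these letters are not in those windows.

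The microglial lists had lower medians than the interferon-stimulated list (0.61). Of 31 tested genes of activated microglia, 10 were called, all higher (32.3%, against 0.602% of all genes), with a list median of 0.30. Of 23 genes of homeostatic microglia 5 were called, all higher (21.7%), with a median of 0.19. Members of these lists were chosen with earlier results of these data known, so the counts describe the lists and do not test them. Ch25h and Clec7a passed the filter on low counts only through their day 3 libraries. Ly86, which pairs with the Toll-like receptor homologue Cd180, was 3.44, 4.06 and 5.14 CPM at day 1 and 7.34, 9.22 and 12.1 CPM at day 3 (log2 fold change 1.17 ± 0.12, adjusted p = 1.04e-06). The groups did not overlap, and 3 of the day 3 libraries lay between 7.34 and 7.64 CPM and the other 3 above 10 CPM. Cd180 itself rose by 1.09 ± 0.20 (adjusted p = 0.00502). Trem2, the lipid-sensing receptor needed for the disease-associated state of microglia, was 8.60, 9.57 and 11.3 CPM at day 1 and 12.3, 14 and 16.8 CPM at day 3 (log2 fold change 0.56 ± 0.08, adjusted p = 0.000225), again without overlap. Its signalling partner Tyrobp rose by 0.54 ± 0.12 (adjusted p = 0.0208). Itgax, the integrin chain CD11c, was 0.11, 0.343 and 0.634 CPM at day 1 and 1.18, 1.46 and 1.68 CPM at day 3 (log2 fold change 2.04 ± 0.34, adjusted p = 0.00203). Clec7a, the beta-glucan receptor of the same state, rose by 2.35 ± 0.52 (adjusted p = 0.0258) from 22 to 113 reads over the groups, with overlap and with the call lost without any 1 of 9 libraries. Without day 1 library 1, its highest library of that day at 0.78 CPM, the log2 fold change of Clec7a was 3.71 ± 0.52. Ch25h, which makes an oxysterol that restrains viral entry, was called at 1.80 ± 0.32 (adjusted p = 0.00228) in this list and as the single called gene of 30 in the cholesterol and lipid list (median 0.03).

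Ctsz, a lysosomal cathepsin, Cd52, a small surface glycoprotein of leukocytes, and Slc15a3, a lysosomal histidine and peptide transporter, rose by 0.41, 1.39 and 0.92 (adjusted p = 0.00623, 0.0149 and 0.0174). The called homeostatic genes included Olfml3, Fcrls, Ptprc and Laptm5. Olfml3 was 16, 16.5 and 20.6 CPM at day 1 and 19.5, 24.1 and 29.1 CPM at day 3 (log2 fold change 0.50 ± 0.08, adjusted p = 0.000923), with the highest day 1 library within the range of day 3. Laptm5, Fcrls and Ptprc, the leukocyte antigen CD45, rose by 0.33, 0.48 and 0.68. None of the 4 microglial markers used for the marker sum passed the test: Csf1r, the receptor that keeps microglia alive, had a log2 fold change of 0.19 (adjusted p = 0.114), Cx3cr1 0.17 (0.327), P2ry12 0.09 (0.754) and Tmem119 0.07 (0.908). Aif1, which encodes Iba1, was 5.23, 6.11 and 7.73 CPM at day 1 and 6.32, 6.76 and 7.63 CPM at day 3 (0.15 ± 0.10, adjusted p = 0.754). The summed markers were highest in day 3 library 1 (252 CPM) and lowest within day 3 in library 3 (200 CPM), and these were the highest day 3 library for 36 and the lowest for 41 of the 101 rises. Day 3 libraries 6, 2, 5 and 4 had sums of 229, 227, 225 and 204 CPM. They were the highest for 35, 13, 8 and 5 rises and the lowest for 4, 7, 26 and 19. The part of marker level in the rises was not tested. Of 9 tested genes of border macrophages and blood-derived leukocytes none was called by edgeR, DESeq2 or limma voom, none had an unadjusted p under 0.05, and the median was 0.10. The markers of border macrophages (Mrc1, Lyve1 and Cd163) summed to 4.95 to 10.9 CPM at day 1 and 6.56 to 10.5 CPM at day 3, and Cd3e and Cd3g of T cells to at most 0.226 and 0.0602 CPM.

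Complement and Fc receptor genes, which tag and receive material for uptake, held 6 called members of 27 tested, all higher, with a median of 0.34. This is 22.2%, against 0.602% of all genes. C4b, a complement component made largely by glia, was 18.9, 26.2 and 29.5 CPM at day 1 and 33.3, 35.5 and 38 CPM at day 3 (log2 fold change 0.48 ± 0.08, adjusted p = 0.00224), without overlap. It was also above vehicle at day 1 already (0.45 ± 0.09 on the log2 scale, adjusted p = 0.035). C1qb, a subunit of the initiating complex C1q, rose by 0.35 ± 0.08 (adjusted p = 0.0396), Fcer1g, the shared signalling chain of Fc receptors, by 0.52 ± 0.11 (adjusted p = 0.0149), the integrin chain Itgb2 by 0.66 ± 0.14 (adjusted p = 0.0165) and Vav1, an exchange factor of immune receptor signalling, by 0.60 ± 0.13 (adjusted p = 0.0232). The sixth call was Itgax, given above. The lysosome and phagocytosis list held 4 called members of 32 (12.5%) with a list median of 0.14, among them Grn, the gene of progranulin (0.23), Laptm5 (0.33) and Ctsz (0.41). None of 22 antigen presentation genes was called by edgeR, DESeq2 or voom, and the median was 0.16. Of the 22, 5 had an unadjusted p under 0.05 in edgeR, against 1407 of all 16767 genes tested. Of 27 tested cytokine and NF-kB genes, Osmr and Bcl3, the receptor of oncostatin M and a partner of NF-kB, were called, with log2 fold changes of 0.64 and 1.30, and each lost its call without any 1 of 11 (Osmr) or 10 (Bcl3) of the 12 libraries. Without day 3 library 6 the activated microglia list held 6 calls, the complement list 2 and the homeostatic list 1, which was Olfml3, and without day 3 library 1 they held 7, 3 and 1. The complement list held 3 without day 1 library 5 or 6. The homeostatic list held 1 to 3 without any 1 of 10 of the 12 libraries, and the lysosome list 1 or 2 without any 1 of 8, of which the lowest were day 3 libraries 1 and 6 and day 1 libraries 5 and 6. Without the Ttr-rich libraries the activated microglia, homeostatic, complement and lysosome lists held 3, 1, 1 and 0 calls, at list medians of 0.20, 0.21, 0.39 and 0.15, and with the factor of animal number they held 6, 2, 3 and 1. Over all genes, 40 and 48 were called higher without day 3 library 6 and 1. The fit without the Ttr-rich libraries called 34 higher, and that with the factor 42.

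Astrocyte reactivity was carried by Gfap, the intermediate filament that astrocytes make more of when they react. It was 200, 215 and 256 CPM at day 1 and 350, 395 and 470 CPM at day 3. Every library of day 3 was far above every library of day 1, and the log2 fold change of 0.88 ± 0.08 had the smallest adjusted p of all genes (4.9e-08). It was one of the 4 genes called in every fit tried. The other called members of the 29 tested reactive astrocyte genes were Cxcl10, Osmr and Cd14, a co-receptor of bacterial lipopolysaccharide that myeloid cells also make. Cd14 was 1.72, 2.15 and 2.22 CPM at day 1 and 2.83, 4.09 and 5.43 CPM at day 3 (log2 fold change 0.98 ± 0.17, adjusted p = 0.00228), without overlap. The 4 called members were 13.8% of the list, against 0.602% of all genes. The list median was 0.12 and 21 of its 29 genes lay above 0. Of 20 general astrocyte markers, Fabp7 alone was called. This fatty acid binding protein of immature and adult astrocytes was 13.9, 19.5 and 21.6 CPM at day 1 and 21.9, 27 and 38 CPM at day 3 (log2 fold change 0.62 ± 0.13, adjusted p = 0.0161), with the call lost without day 3 library 1 or 6 or day 1 library 4. The markers Aqp4, Aldh1l1, Slc1a3 and Gja1 had log2 fold changes of 0.22, 0.10, 0.09 and -0.10, none of them called.

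Genes of dividing cells rose from low levels. Of 37 tested genes of mitosis 6 were called, all higher (16.2%, against 0.602% of all genes), with a median of 0.51, and 35 of these 37 lay above 0. Of 38 tested genes of DNA replication 3 were called, all higher (7.89%), with a median of 0.19. Mki67, the gene of the proliferation antigen Ki-67, was 1.14, 1.19 and 2.59 CPM at day 1 and 4.17, 4.82 and 6.91 CPM at day 3 (log2 fold change 1.76 ± 0.21, adjusted p = 1.82e-05). Top2a, the topoisomerase that untangles chromosomes, was 0.676, 0.866 and 1.82 CPM at day 1 and 3.43, 4.50 and 5.68 CPM at day 3 (log2 fold change 2.12 ± 0.29, adjusted p = 8.34e-05). For both genes the groups were far apart. Uhrf1, which carries DNA methylation through replication, was 0.325, 0.872 and 1.09 CPM at day 1 and 1.45, 2.44 and 2.99 CPM at day 3 (log2 fold change 1.62 ± 0.26, adjusted p = 0.00106). Ccnb1, the mitotic cyclin, rose by 1.98 ± 0.42 (adjusted p = 0.0171) from 26 to 102 reads over the groups, and Ube2c, which helps to degrade it, by 1.87 ± 0.38 (adjusted p = 0.0128) from 33 to 123 reads. The spindle motor Kif11, the mitotic kinase Pbk, the chromatin assembly subunit Chaf1b and the helicase subunit Mcm3 rose by 0.93, 1.53, 1.30 and 0.66. Mki67, Top2a and Uhrf1 kept their calls without any 1 library, Ube2c lost its call without day 1 library 5 and Ccnb1 without day 3 library 1 or 6 or day 1 library 6, and the other 4 without 6 to 9 of the 12. Day 3 library 1 was the highest of day 3 for 6 of these 9 genes. The mitosis list held 2 calls without the Ttr-rich libraries, at a median of 0.60, and 2 with the factor of animal number, and the replication list 2 and 1. The E2F motifs TTTCCCGC and TTTGGCGC, on either strand, were found in the promoter of 1 of 8 called genes with a window (12.5%, Mcm3), in 17.7% of the 62 tested members of both lists with a window, in 3.14% of tested genes and in 1.56% of all windows. None of 23 growth arrest and p53 target genes was called by edgeR, DESeq2 or voom (median -0.01). Of the 23, 9 had an unadjusted p under 0.05 in edgeR, against 1407 of all 16767 genes tested. Cdkn1a, the cell cycle inhibitor p21, was 9.52, 10.3 and 14.1 CPM at day 1 and 12.3, 13 and 18.8 CPM at day 3. Its log2 fold change was 0.37 ± 0.16 (adjusted p = 0.499).

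**Figure D3:**
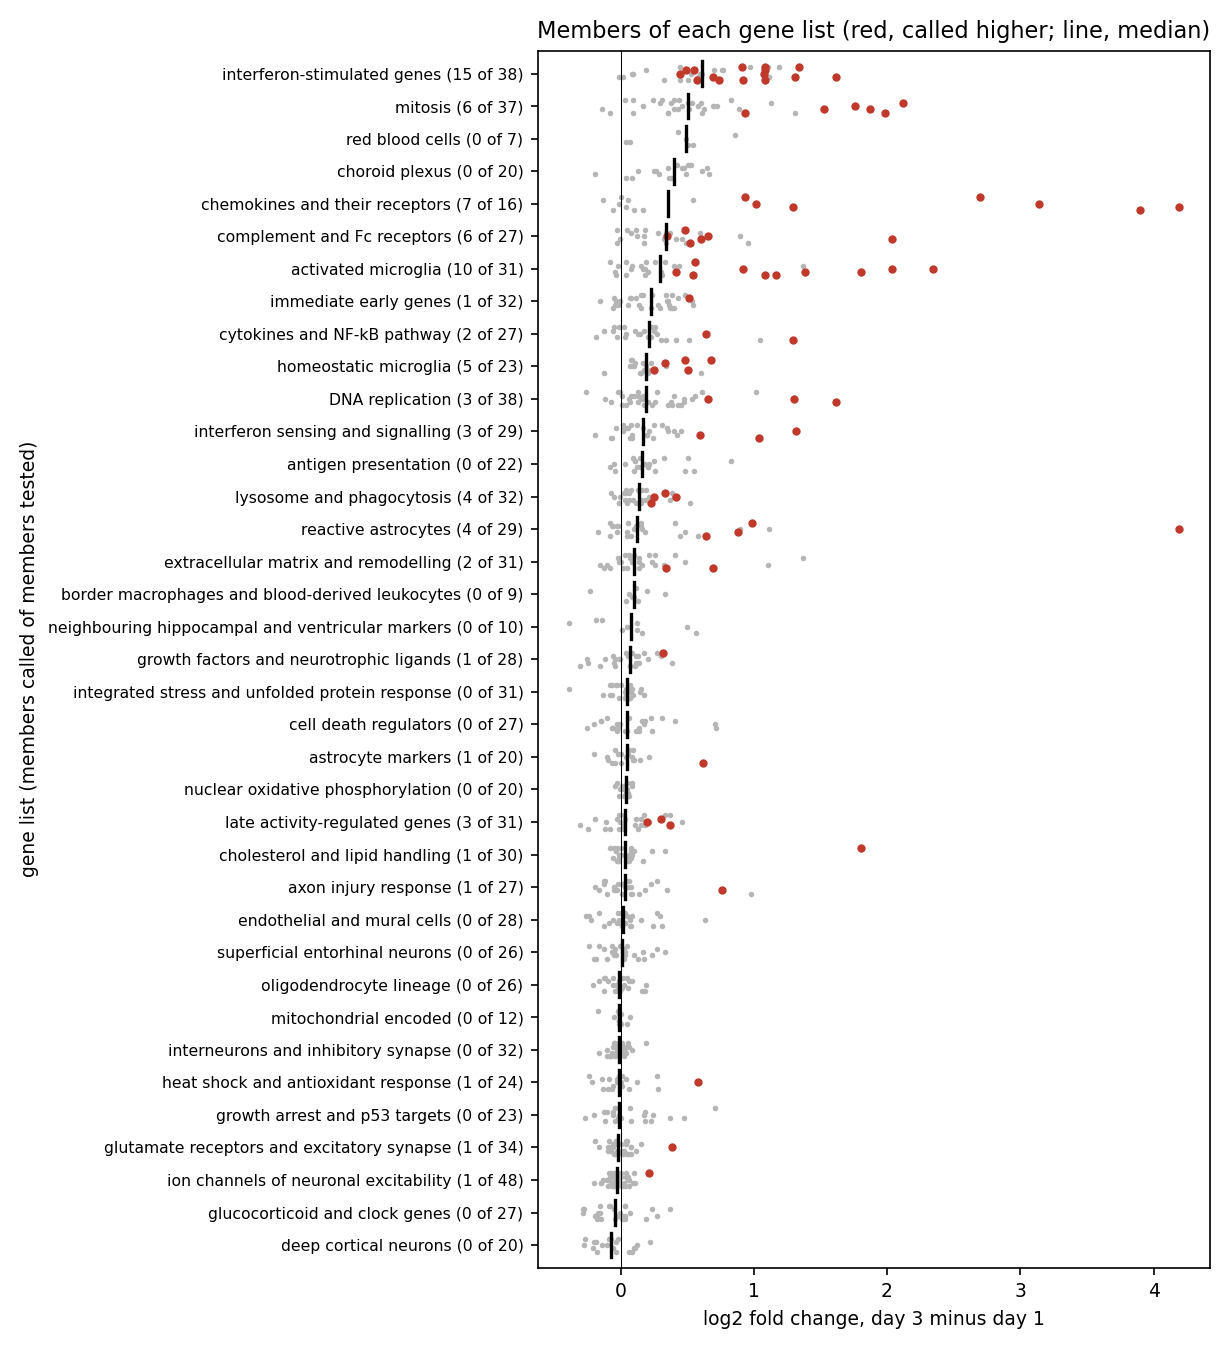
Log2 fold change, day 3 minus day 1, of every tested member of the 37 gene lists, ordered by list median; red points are members called higher, the black line is the list's median and the label gives members called of members tested. The lists of interferon-stimulated and mitosis genes have the highest medians, 0.61 and 0.51, and the lists of choroid plexus and red blood cell genes have medians of 0.40 and 0.49 with no member called.

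Rises among neuronal and activity-linked genes were small. Of these genes 6, Egr3, Dio2, Ephb3, Grasp, Synpo and Kcnh3, were called lower than vehicle at day 1. In that comparison 0.0656% of all genes were called. Both comparisons use the same day 1 libraries, so low day 1 values favour both calls. Of 32 immediate early genes 1 was called (3.12%, against 0.602% of all genes), Egr3, a transcription factor induced by synaptic activity. It was 117, 138 and 175 CPM at day 1 and 168, 203 and 236 CPM at day 3 (log2 fold change 0.51 ± 0.12, adjusted p = 0.0291). The highest library of day 1 lay within the range of day 3, and the call was lost without any 1 of 6 libraries (day 1 libraries 1, 3 and 4 and day 3 libraries 1, 3 and 6). Against vehicle, Egr3 was at -0.74 ± 0.12 at day 1 and -0.23 ± 0.12 at day 3 (adjusted p = 0.00602 and 0.928). The median of the list was 0.23 and 25 of its 32 genes were above 0. With no filter on low counts 17 of the 32 were called, all higher, against 229 higher of all 36066 genes in that fit. The same fit called 5 genes of choroid plexus, whose amount differed widely between libraries, and 3 red blood cell genes. Its 17 calls are therefore not read as a rise of the list. The list's median without the Ttr-rich libraries was 0.13. Fos was 7.07, 27.5 and 62 CPM at day 1 and 19.7, 40.7 and 64 CPM at day 3 (0.39 ± 0.39, adjusted p = 0.861), and Arc, which acts at synapses, was 31.3, 180 and 311 CPM and then 114, 201 and 397 CPM (0.37 ± 0.42, adjusted p = 0.886). Both varied several-fold within each day.

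Among 31 late activity-regulated genes, Dio2, Grasp and Synpo were called higher (9.68%, against 0.602% of all genes), and the list median was 0.03. Dio2, the deiodinase that makes active thyroid hormone, found mainly in astrocytes, was 43.9, 47.2 and 51.8 CPM at day 1 and 57.5, 59 and 70.7 CPM at day 3 (log2 fold change 0.37 ± 0.09, adjusted p = 0.0474), without overlap. Grasp, a scaffold of glutamate receptors, was 58.0, 62.8 and 64.3 CPM at day 1 and 66.3, 75 and 88 CPM at day 3 (0.30 ± 0.07, adjusted p = 0.0364), also without overlap. Synpo, the actin-binding protein of the spine apparatus, rose by 0.20 ± 0.05 (adjusted p = 0.0456). Ephb3, an ephrin receptor and the single called gene of 34 in the list of glutamate receptors and excitatory synapse, was 20.4, 26 and 26.8 CPM at day 1 and 29.9, 32.9 and 33.5 CPM at day 3 (0.39 ± 0.07, adjusted p = 0.00224). Kcnh3, a voltage-gated potassium channel and the single called gene of 48 ion channels, rose by 0.21 ± 0.05 (adjusted p = 0.0306). Bdnf, the activity-regulated neurotrophin, was 19.1, 24.8 and 28.4 CPM at day 1 and 22.7, 26.4 and 29.6 CPM at day 3 (0.12 ± 0.08, adjusted p = 0.775). The call of Ephb3 held without any 1 library, while those of Dio2, Grasp, Synpo and Kcnh3 were lost without any 1 of 11, 9, 9 and 8 of the 12. Without the Ttr-rich libraries Dio2, Grasp, Ephb3 and Egr3 were not called, at log2 fold changes of 0.44, 0.32, 0.43 and 0.41, and Synpo and Kcnh3 were, at 0.28 and 0.33.

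**Figure D4:**
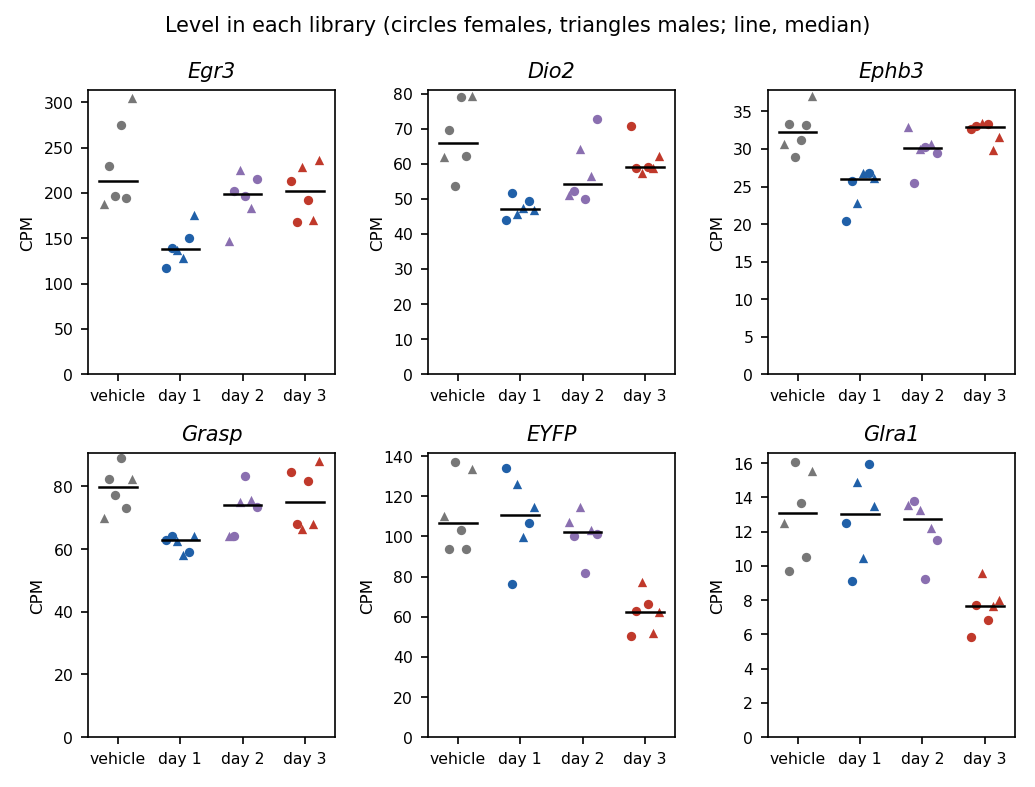
Level in CPM of 4 genes lower than vehicle at day 1 (Egr3, Dio2, Ephb3 and Grasp) and of the transgene marker EYFP and Glra1 in each of the 24 libraries by group; circles are females, triangles males and the black line is the group's median. The first 4 are shown because they were called lower at day 1 than at day 3 and than in vehicle. Egr3 had a median of 138 CPM at day 1 against 203 CPM at day 3, while EYFP fell from a median of 111 CPM at day 1 to 62.5 CPM at day 3.

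The largest falls were those of EYFP and Glra1. EYFP, the fluorescent marker that the labels tie to the GlyCl construct, was 76.3, 111 and 134 CPM at day 1 and 50.4, 62.5 and 77.4 CPM at day 3. Of the day 3 libraries, 1 just exceeded the lowest of day 1. The log2 fold change was -0.83 ± 0.11 (adjusted p = 8.34e-05), and against vehicle EYFP was at -0.07 at day 1, -0.17 at day 2 and -0.89 at day 3. Glra1, the glycine receptor alpha 1 subunit, was 9.14, 13 and 15.9 CPM at day 1 and 5.83, 7.68 and 9.57 CPM at day 3 (log2 fold change -0.76 ± 0.13, adjusted p = 0.00243), with -0.07, -0.12 and -0.83 against vehicle. Whether reads of the construct were counted under Glra1 was not tested. Both genes kept their calls without any 1 library. None of 4 markers of superficial entorhinal neurons passed the test. Reln, the secreted protein reelin, was 118, 132 and 146 CPM at day 1 and 120, 128 and 141 CPM at day 3 (-0.04 ± 0.07, adjusted p = 0.92), Calb1 had a log2 fold change of 0.03 ± 0.05 (adjusted p = 0.945) and Klk8, the gene of neuropsin, 0.27 ± 0.20 (adjusted p = 0.779). Wfs1, another superficial marker, was 226, 241 and 258 CPM at day 1 and 201, 210 and 231 CPM at day 3 (-0.19 ± 0.05, adjusted p = 0.148). The 4 markers together summed to 491 to 566 CPM at day 1 and 474 to 537 CPM at day 3 (exact permutation test, two-sided, p = 0.0519, adjusted p = 0.26 over 20 measures).

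The other 6 falls were small and none belonged to a list. Nat8f4, an acetyltransferase of a family of near-identical genes, was 13.1, 14.6 and 17.5 CPM at day 1 and 10.1, 10.6 and 12.1 CPM at day 3 (log2 fold change -0.44 ± 0.08, adjusted p = 0.00622). Galnt13, which starts mucin-type sugar chains in neurons, was 33.8, 36.3 and 38 CPM at day 1 and 27.9, 29.6 and 33 CPM at day 3 (-0.27 ± 0.05, adjusted p = 0.00623). Neither overlapped, and both calls held without any 1 library. Elk1, a transcription factor downstream of MAP kinase signalling, fell by 0.23 on the log2 scale from a level above vehicle (0.27 ± 0.05 at day 1, 0.05 ± 0.05 at day 3). Plcxd2, Vill and Stx16, a syntaxin of endosome to Golgi traffic, had log2 fold changes of -0.26, -0.46 and -0.16. The calls of Plcxd2, Elk1, Vill and Stx16 were lost without any 1 of 3, 5, 7 and 8 of the 12 libraries.

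Lists of other cell types and of stress showed few or no calls. Of the 37 lists 21 held a called member and 16 held none, and in the reported fit no list held a called member that was lower at day 3. In those 16 lists, with 340 tested members counted list by list, edgeR, DESeq2 and limma voom with the filter on low counts called none. Of the 340, 50 had an unadjusted p under 0.05 in edgeR, against 1407 of all 16767 genes tested. The share in these lists was the larger, so the lack of calls is not read as a lack of change. With no filter on low counts edgeR called 29 members of these lists, 18 of them higher, among them 8 glucocorticoid and clock genes, 5 choroid plexus genes and 4 genes of superficial entorhinal neurons. Over all 36066 genes that fit called 229 higher and 66 lower. The fit without the Ttr-rich libraries and the fit with the factor of animal number each called 2, of which 1 was in the superficial and 1 in the deep neuron list. Without day 1 library 2, 1 superficial neuron gene was called, and without day 1 library 1, 1 endothelial or mural gene. The 16 lists included superficial entorhinal neurons (26 tested, 4 with an unadjusted p under 0.05, median 0.01), deep cortical neurons (20 tested, 4, median -0.07), interneurons (32 tested, 4, median -0.01), the oligodendrocyte lineage (26 tested, 1, median -0.01), endothelial and mural cells (28 tested, 4, median 0.02), regulators of cell death (27 tested, 7, median 0.05), the integrated stress response (31 tested, 1, median 0.05), glucocorticoid and clock genes (27 tested, 6, median -0.04), nuclear oxidative phosphorylation (20 tested, 0, median 0.04) and mitochondrially encoded genes (12 tested, 0, median -0.01). The choroid plexus list (20 tested, median 0.40) and the red blood cell list (7 tested, median 0.49) had high medians with no call, and the neighbouring hippocampal and ventricular markers a median of 0.08. Haemoglobin markers summed to 47.5 to 122 CPM at day 1 and 87.1 to 151 CPM at day 3 (exact permutation test, two-sided, p = 0.0325, adjusted p = 0.26 over 20 measures).

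Called members of 4 further lists were few, where 0.602% of all genes were called higher. Ecel1, an endopeptidase of injured neurons and the called gene of 27 in the axon injury list (median 0.03), was 12.5, 17.1 and 20.7 CPM at day 1 and 22.2, 28.6 and 30.7 CPM at day 3 (log2 fold change 0.76 ± 0.16, adjusted p = 0.0161), without overlap and with the call lost without day 1 library 4 or 5 or day 3 library 6. Atf3, the injury-induced transcription factor, was 0.26, 0.76 and 1.14 CPM at day 1 and 1.02, 1.44 and 1.89 CPM at day 3 and missed the threshold (0.98 ± 0.26, adjusted p = 0.0954). Hmox1, which breaks down haem, rose by 0.58 ± 0.12 (adjusted p = 0.00987), the single call of 24 heat shock and antioxidant genes (median -0.01), and held without any 1 library. The call of Hmox1 was lost when only the day 1 and day 3 libraries were fitted. Mmp15 and Plau, enzymes that cut matrix, were the calls of 31 matrix genes (0.34 and 0.69, list median 0.10). Pdgfb, a growth factor for mural cells and glial precursors, was the call of 28 growth factor genes (0.32 ± 0.08, adjusted p = 0.0473, list median 0.07), and lost its call without any 1 of 10 libraries.

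Of the 101 rises 30 belonged to no list. Capg, an actin-capping protein of macrophages, was 1.48, 1.89 and 2.15 CPM at day 1 and 2.90, 3.73 and 5.29 CPM at day 3 (log2 fold change 1.05 ± 0.19, adjusted p = 0.00403), without overlap. The following were chosen after their values were seen. Mpeg1, a pore-forming protein of macrophages, was 20.7, 25.3 and 26.2 CPM at day 1 and 31.1, 35.3 and 42.1 CPM at day 3 (log2 fold change 0.58 ± 0.08, adjusted p = 8.88e-05). Fgfrl1, a fibroblast growth factor receptor without a kinase domain, rose by 0.46 ± 0.07 (adjusted p = 0.000942), and its groups did not overlap. Lcp1, the leukocyte actin bundler plastin, rose by 0.48. Slfn9, Rnf213, Parp12 and Ddx60, of families with interferon-induced members, rose by 1.88, 0.51, 0.42 and 1.14. The calls of Capg, Mpeg1, Fgfrl1, Lcp1 and Slfn9 held without any 1 library, while Rnf213, Parp12 and Ddx60 lost theirs without any 1 of 5, 7 and 7.

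The called genes were then placed beside vehicle and day 2. These comparisons share the day 1 and day 3 libraries, so the values are given side by side only. Of the 101 rises, 93 had a day 3 level above vehicle, as did 8212 of all 16767 genes tested. In the comparison of day 3 with vehicle, 68 of the 101 were called, against 0.614% of all genes. For 88 genes day 3 was further from vehicle than day 1, with median log2 fold changes against vehicle of 0.06 at day 1, 0.29 at day 2 and 0.84 at day 3. For the other 13 genes day 1 was further from vehicle, and the medians were -0.34, -0.13 and -0.03. These 13 were Egr3, Dio2, Ephb3, Grasp, Synpo, Kcnh3, Pdgfb, Fabp7, Etv4, Bcor, Mn1, Fbxo9 and Fam129b. In the comparison of day 1 with vehicle, in which 0.0656% of all genes were called, 7 of the 101 were called: C4b, which was higher at day 1, and Egr3, Dio2, Ephb3, Grasp, Synpo and Kcnh3, which were lower. For 94 of the 101 genes the day 2 level lay between day 1 and day 3, and for 68 the step from day 2 to day 3 was the larger (median steps 0.21 and 0.48). Over all 16767 genes tested, which unlike these were not chosen for a difference between day 1 and day 3, the counts were 6774 and 8652. Gfap stood at 0.24, 0.51 and 1.12 above vehicle on the 3 days and Mki67 at -0.14, 0.50 and 1.62. Of the 8 falls, 7 ended below vehicle, as did 8555 of all 16767 genes tested. In the comparison of day 3 with vehicle 2 of the 8 were called. All 8 had a day 2 level between.

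**Figure D5:**
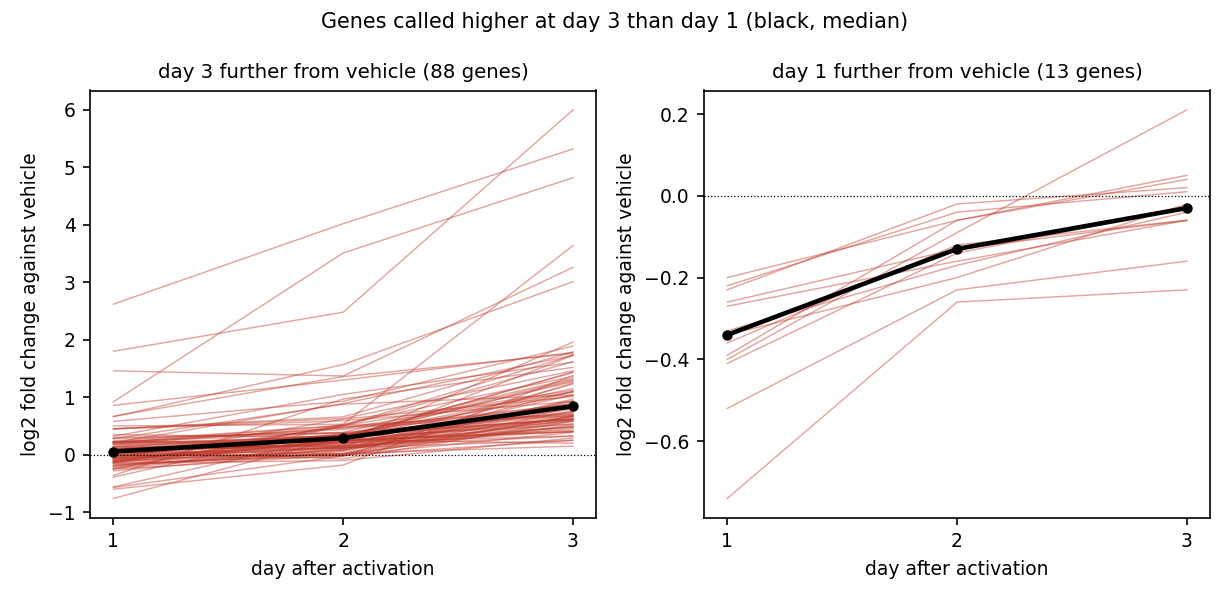
Log2 fold change against vehicle at days 1, 2 and 3 for the 88 rises whose day 3 level was further from vehicle (left) and the 13 whose day 1 level was (right); each red line is a gene and the black line is the median of the panel. The medians run from 0.06 over 0.29 to 0.84 on the left and from -0.34 over -0.13 to -0.03 on the right, with different vertical scales.

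Both sexes were represented in each group, and the change from day 1 to day 3 was compared between them. No gene was called for a day by sex interaction by edgeR (0.00% of 16767 genes, with 978 at an unadjusted p under 0.05) or by limma voom (978 as well). Gfap rose by 0.92 ± 0.11 in females and 0.84 ± 0.11 in males, and EYFP changed by -0.81 ± 0.17 and -0.84 ± 0.17. Cxcl10 rose by 3.57 ± 0.56 in females and 5.34 ± 0.69 in males (interaction adjusted p = 0.847). With 3 libraries of a sex per day the fits within a sex called 9 genes higher and 1 lower in females and 11 higher and 2 lower in males.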

How the data were processed

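Counts of reads per gene were deposited by the authors as a single table of raw whole numbers with 24 library columns, all used. Per the submitters' processing notes the tools included STAR (2.7.9a), fastp (0.23.1) and DESeq2 (1.32.0), and the build was mm39. Not given in the sources used here were the roles of the tools, the counting program, the annotation and the use of strand, so overlapping and antisense genes, and near-identical copies, cannot be told apart. Gene coordinates on mm39 are not given, and promoter positions are those of the RefSeq table on GRCm38.p6.

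Groups came from the treatment labels. Each library has its own animal number, but the labels do not say in words that animals were separate; p-values measure the spread between these libraries. Within the day 1 and day 3 groups no pair of libraries agreed within sampling noise (chi-square over degrees of freedom 3.94 to 13.4 over 30 pairs).

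Counts were tested with edgeR 4.0.16 in R 4.3.3 (quasi-likelihood, two-sided) in a model of group and sex over all 24 libraries, which share the estimate of spread, after trimmed-mean scaling and the filterByExpr filter (minimum count 10, minimum total 15), which kept 16767 of 55417 genes. Adjusted p is Benjamini-Hochberg over all genes tested, and CPM is not scaled further. Errors after ± are approximate standard errors with n = 6 per day. They were obtained by dividing the absolute log2 fold change by the square root of the F statistic of the test. For genes of few reads they can be too small. Named genes were the called genes with the largest changes (up to 15 each way at a mean log2 CPM of at least 1) or the smallest p (5 each way), called members of 37 gene lists (at most 8 a list), and 20 genes tied to the model; others are marked in the text or were added to complete a list, and 1 called gene is not reported here. The members and lists were chosen with earlier results of these data known. Library measures were compared with exact permutation tests. Alternatives used limma 3.58.1 and DESeq2 1.42.0. Figures were drawn with matplotlib.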

Additional observations from a re-analysis of the deposited data

Results flagged for a closer look

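Among 30 of the named genes, each tested in the 2 groups of 6 libraries, 9 of the 60 groups held a library far from the others, by the gap to the nearest library divided by the group's range (95% critical value of Dixon's test for 6 values). Chance gives about 1 such group in 20. Ccl6 had its highest day 3 value in library 6, 4.79 CPM against 3.49 CPM in the nearest library (ratio 0.763). Cd14 had its lowest day 1 value in library 1, 1.72 CPM against 2.11 CPM in the nearest library (ratio 0.795). AU020206 had its highest day 3 value in library 6, 4.08 CPM against 3.07 CPM in the nearest library (ratio 0.751). Gfap had its highest day 1 value in library 1, 256 CPM against 219 CPM in the nearest library (ratio 0.651). AI506816 had its highest day 3 value in library 1, 4.7 CPM against 3.42 CPM in the nearest library (ratio 0.681). Ccl4 had its lowest day 3 value in library 5, 0.74 CPM against 1.32 CPM in the nearest library (ratio 0.695). Cxcl10 had its highest day 1 value in library 5, 0.803 CPM against 0.22 CPM in the nearest library (ratio 0.769). Isg15 had its lowest day 3 value in library 3, 1.44 CPM against 3.36 CPM in the nearest library (ratio 0.743). Dio2 had its highest day 3 value in library 1, 70.7 CPM against 62.2 CPM in the nearest library (ratio 0.648). For Cxcl10 and Gfap the library that stood apart at day 1 was still below every library of day 3, while the low day 3 value of Isg15 lay within the range of day 1.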

How the results depend on the processing

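None of the 109 called genes changed direction in any of the 25 alternative fits that tested it; the median log2 fold change of the 101 rises was 0.59 to 0.73 across them, while the number of calls varied. Genes higher and lower at day 3, 101 and 8 in the reported fit, numbered 229 and 66 with no filter on low counts, 42 and 11 with the first 2 digits of the animal number as a factor, 34 and 13 without the Ttr-rich libraries, 9 and 1 in females only, 11 and 2 in males only, and 27 and 2 tested against a 1.2-fold change. DESeq2 called 135 and 21. A fit of only the day 1 and day 3 libraries called 86 and 9, of which 75 and 6 were shared with the reported fit. Leaving out 1 library at a time gave 40 to 100 higher and 4 to 15 lower. Calls shared with the reported fit were 101 and 8 by DESeq2, 98 and 8 by limma voom, 37 and 5 with the animal number factor, and 24 and 4 without the Ttr-rich libraries, which leaves 4 libraries of day 1 and 3 of day 3; fewer libraries enter that fit and those of single sexes. The remaining cause of each difference was not tested. Only Gfap, Ly86, Cxcl10 and Mki67 were called in every fit. Of the uncalled genes with values above, some changed sign. Without the Ttr-rich libraries Fos moved to 0.00, Calb1 to -0.03 and Ttr, which was at 0.52 in the reported fit, to -0.04. In females Calb1 moved to -0.05 and Ttr to -0.38, and in males Bdnf moved to -0.06 and Reln to 0.03. Leaving out 1 library gave -0.01 to 0.05 for Calb1 and -0.48 to 3.47 for Ttr. The interaction of Ccl3 was -0.15 by voom and 0.55 by edgeR. The labels give the groups no shared replicate numbers, so none was used as a block; the fit with the animal number factor is the only blocked one. Depth limits the genes under 1 CPM most: the sizes of changes from a few reads at day 1 are imprecise.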
